A study of Mus musculus with 7 samples.

Results

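The interleukin-6 (IL-6) family of cytokines and the STAT3 pathway they signal through were followed here in whole hearts of dystrophic mice. The set comprised 10 genes, which were Osm, Il6, Lif, Osmr, Il6ra, Il6st, Lifr, Stat3, Socs3 and Bcl3. On the Affymetrix Mouse Genome 430 2.0 array, 24 of 45037 probe sets carried exactly 1 of these gene names, and all 24 are described (18193 genes in all had a probe set of their own). Ligands had 4 probe sets, receptors 12, Stat3 4, Socs3 3 and Bcl3 1. The genes were picked from the same contrast that is described below, because Osmr and Socs3 were higher in it, so the differences of these genes are given as a description and not as a test.

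All 7 mice were mdx males, which lack dystrophin and model Duchenne muscular dystrophy, and all were 7 months old. In 4 of them, called mdx HRTΔIKKβ, a Cre recombinase driven by the Myh6 promoter had removed floxed IKKβ, the kinase that switches on classical NF-κB, in cardiomyocytes only. The other 3, called mdx IKKβf/f, were littermates with floxed IKKβ and no Cre listed. Total RNA came from the whole heart, so cells that keep IKKβ contribute to every value, and fewer cells of a type cannot be told apart from less RNA per cell. No wild type heart was on these arrays.

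IL-6 family cytokines share the signalling receptor chain gp130, the product of Il6st. Oncostatin M binds the pair of gp130 and its own receptor chain, OSMR, leukaemia inhibitory factor binds gp130 with LIFR, and IL-6 first binds IL-6 receptor α, the product of Il6ra. Janus kinases attached to these receptors phosphorylate STAT3, which enters the nucleus and induces target genes, among them Socs3, whose protein docks on gp130 and shuts the signal off. In the heart the family is known for protecting cardiomyocytes in the short term, and oncostatin M for driving them to dedifferentiate. Bcl3 encodes an atypical member of the IκB family that binds the p50 and p52 subunits of NF-κB in the nucleus, and its own gene is known to respond to STAT3 as well as to NF-κB.

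The promoters of the genes whose hearts separated most by group are shown because NF-κB and STAT3 read known DNA motifs. RefSeq promoters (GRCm38.p6, 250 bases before and 50 after a start site) were found for 9 of the 10 genes, Osm being the other, and Lifr had 2 start sites. Capitals mark a STAT motif (TTCNNNGAA) in Socs3 and a κB consensus motif in Bcl3, each searched on both strands, and neither motif overlaps the other.
Osmr, chr15:6874264-6874563, minus strand: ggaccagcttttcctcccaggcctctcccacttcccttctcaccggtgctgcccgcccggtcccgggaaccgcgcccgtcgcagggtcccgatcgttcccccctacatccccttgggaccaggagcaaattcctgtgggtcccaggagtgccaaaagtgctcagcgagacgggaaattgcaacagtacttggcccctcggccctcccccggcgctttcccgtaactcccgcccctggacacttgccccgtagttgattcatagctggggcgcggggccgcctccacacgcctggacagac
Stat3, chr11:100939491-100939790, minus strand: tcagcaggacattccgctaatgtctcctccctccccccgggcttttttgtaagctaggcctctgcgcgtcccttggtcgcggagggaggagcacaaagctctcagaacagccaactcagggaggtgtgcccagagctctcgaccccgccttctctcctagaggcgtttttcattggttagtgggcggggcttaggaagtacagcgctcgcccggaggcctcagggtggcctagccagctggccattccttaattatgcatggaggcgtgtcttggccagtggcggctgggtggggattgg
Socs3, chr11:117969317-117969616, minus strand: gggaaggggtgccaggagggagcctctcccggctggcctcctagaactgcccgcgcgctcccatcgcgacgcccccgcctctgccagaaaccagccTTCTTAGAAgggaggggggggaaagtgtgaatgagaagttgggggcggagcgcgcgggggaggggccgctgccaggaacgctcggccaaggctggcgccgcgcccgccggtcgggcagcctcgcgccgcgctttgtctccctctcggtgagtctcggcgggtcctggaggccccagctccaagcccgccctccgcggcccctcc
Bcl3, chr7:19822706-19823005, minus strand: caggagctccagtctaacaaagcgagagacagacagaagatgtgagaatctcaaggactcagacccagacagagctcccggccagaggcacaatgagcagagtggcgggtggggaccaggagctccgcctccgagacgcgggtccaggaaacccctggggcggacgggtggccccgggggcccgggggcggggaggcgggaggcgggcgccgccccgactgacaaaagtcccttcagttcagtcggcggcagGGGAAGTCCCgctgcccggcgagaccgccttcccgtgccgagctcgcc

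The STAT motif stood in 1 of the 10 promoters, that of Socs3, where it began 154 bases before the start site. The κB motif stood in 3 of the 10. It began 44 bases before the start site of Il6 and 178 bases before that of Lif, and at 2 bases past the start site of Bcl3. The promoters of Osmr, Stat3, Il6ra, Il6st and Lifr held neither set of letters in this window. Of 32851 mouse promoters of the same length, 8.3% held the STAT motif and 8.46% the κB motif, so a match describes the sequence and does not show a site in use.

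All values that follow are log2 values as deposited, and a difference is the mean of mdx HRTΔIKKβ hearts minus that of mdx IKKβf/f hearts, followed by its standard error (SE) in the limma fit. Array medians lay between 6.73 and 6.75, and any pair of arrays correlated at 0.9875 or more across probe sets. Ikbkb, which encodes IKKβ, was 8.44, 8.86, 8.75 and 8.82 in mdx HRTΔIKKβ hearts and 8.82, 9.03 and 8.86 in mdx IKKβf/f hearts on its brightest probe set (-0.18 ± 0.11), and its other 4 probe sets differed by between -0.08 and 0.02. No source used here places these probes relative to the floxed sequence, so the Ikbkb values do not check the deletion. The paper checked it by quantitative PCR on whole hearts and reports lower Ikbkb expression in mdx HRTΔIKKβ hearts. Myh6, the cardiac myosin heavy chain, averaged 14.84 in mdx HRTΔIKKβ hearts and 14.84 in mdx IKKβf/f hearts. Some hearts stood apart in marker genes of other tissues, each summed up per heart as a mean log2 deviation from the average of the 7 hearts. Skeletal muscle markers reached 3.81 in mdx IKKβf/f heart 1, against 0.66 or less in the 6 others. Atrial markers were at -1.64 in mdx IKKβf/f heart 2, and neutrophil markers were at 2.57 in mdx HRTΔIKKβ heart 2 and 2.27 in mdx IKKβf/f heart 1. Each member's difference was therefore also computed with every heart left out in turn.

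Across the axis, Socs3, Osmr and Stat3 were the genes in which every mdx HRTΔIKKβ heart exceeded every mdx IKKβf/f heart on at least 1 probe set, while the ligand Osm and the shared or partner receptors Il6ra, Il6st and Lifr overlapped between groups on all their probe sets. The mean was higher in mdx HRTΔIKKβ hearts for 22 of the 24 probe sets and lower for 2, with a median difference of 0.13 over the 24, against -0.0056 over all 45037. A mean difference of at least 1.5-fold, the cut-off of the study, was seen upward for 7 of the 24 probe sets, against 0.79% of all probe sets, and downward for 0. Groups did not overlap, with mdx HRTΔIKKβ higher, for 7 of the 24, against 3.01% of all probe sets, and with it lower for 0. Both counts include the genes on whose difference the set was picked, so nothing is read from their excess. After Benjamini-Hochberg adjustment in limma, 0% of the 45037 probe sets passed an adjusted p of 0.05, with 2735 at an unadjusted p under 0.05 in limma and 2086 in the methods' t-test, which also left 0 after adjustment. The smallest adjusted p over all probe sets was 0.336 in limma.

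**Figure D1:**
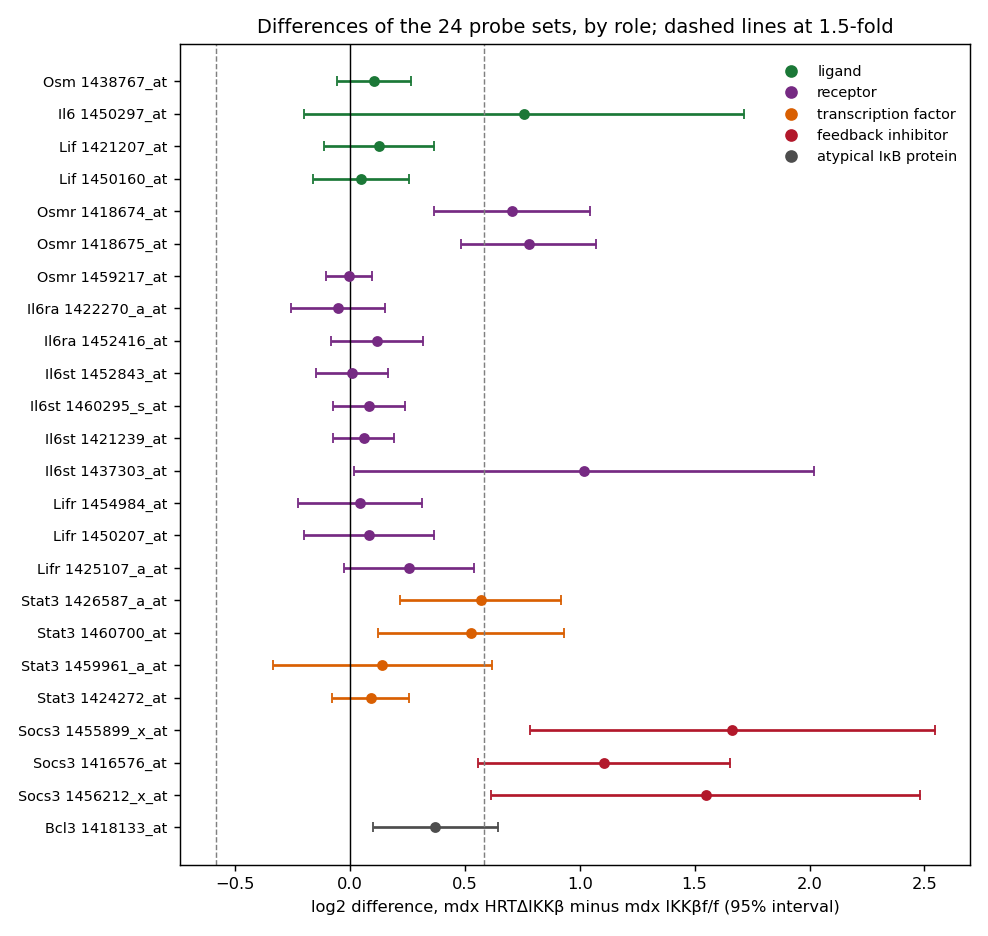
Difference of each of the 24 probe sets on the log2 scale (mdx HRTΔIKKβ minus mdx IKKβf/f) and the 95% interval of the limma fit as a bar, coloured by role, and dashed lines at 1.5-fold. The 3 Socs3 probe sets lie farthest to the right, at 1.11 to 1.66, followed by Il6st 1437303_at at 1.02. Of the 3 Osmr probe sets 2 lie at 0.71 and 0.78, and Il6 lies at 0.76, while most receptor probe sets lie near 0.

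Among the ligands, no probe set separated the groups. Osm, which macrophages and neutrophils are known to secrete as oncostatin M, was 7.62, 7.61, 7.44 and 7.48 in mdx HRTΔIKKβ hearts and 7.48, 7.48 and 7.35 in mdx IKKβf/f hearts. The groups overlapped and the difference was 0.10 ± 0.07, with a 95% interval from -0.06 to 0.26, so a change of 1.5-fold lay outside the interval. Il6 was 6.08, 4.70, 4.57 and 4.12 in mdx HRTΔIKKβ hearts and 4.02, 4.15 and 4.15 in mdx IKKβf/f hearts. Here 3 of the 4 mdx HRTΔIKKβ hearts stood above all controls, with heart 1 far above the rest, and the 1 remaining heart lay among the controls. The Il6 difference of 0.76 ± 0.41 (95% interval -0.20 to 1.72) depended on that heart, as it was 0.35 without mdx HRTΔIKKβ heart 1. This probe set was dim, at the 13.4th percentile of brightness over the array. Lif, which encodes leukaemia inhibitory factor, had 2 probe sets that differed by 0.13 ± 0.10 and 0.05 ± 0.09. On its brighter probe set mdx HRTΔIKKβ hearts 1 and 2 were the highest, at 5.88 and 5.73, and the other two mdx HRTΔIKKβ hearts, at 5.44 and 5.57, lay at or near the mdx IKKβf/f hearts, at 5.52, 5.50 and 5.57.

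**Figure D2:**
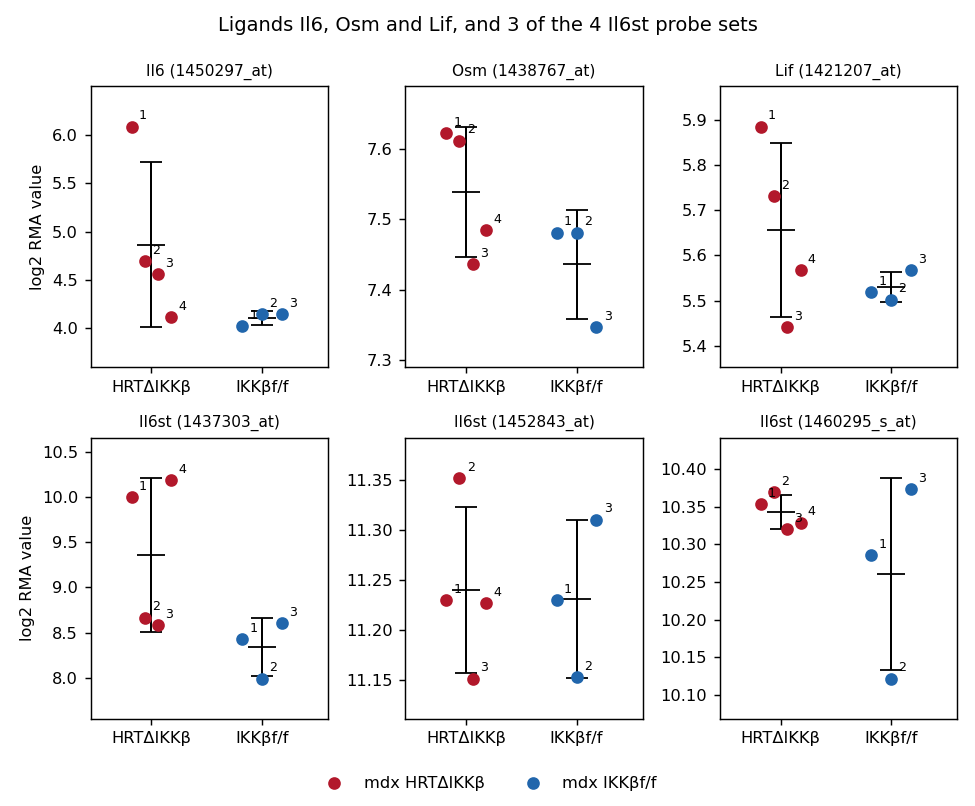
Log2 values in each heart (points, numbered by replicate) for the ligands Il6, Osm and Lif and for 3 of the 4 Il6st probe sets, with group means and SD bars, mdx HRTΔIKKβ left and mdx IKKβf/f right, each panel on its own axis. Il6 reached 6.08 in mdx HRTΔIKKβ heart 1, and probe set 1437303_at of Il6st was at 9.999 and 10.19 in mdx HRTΔIKKβ hearts 1 and 4 only, while the brightest Il6st probe set spanned 0.20 over all 7 hearts.

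Osmr, the receptor chain that makes a cell sensitive to oncostatin M, exceeded all 3 controls in each of the 4 mdx HRTΔIKKβ hearts on 2 of its 3 probe sets. On the brightest, 1418674_at, it was 9.98, 10.05, 9.91 and 10.24 in mdx HRTΔIKKβ hearts (10.05 ± 0.14, SD, n = 4) and 8.98, 9.53 and 9.50 in mdx IKKβf/f hearts (9.34 ± 0.31, SD, n = 3). The lowest mdx HRTΔIKKβ heart lay 0.38 above the highest control, and the difference was 0.71 ± 0.15, or 1.63-fold, with a 95% interval from 0.37 to 1.04. On 1418675_at the values were 7.80, 7.81, 7.58 and 8.15 in mdx HRTΔIKKβ hearts and 7.11, 7.12 and 6.94 in mdx IKKβf/f hearts. That is a difference of 0.78 ± 0.13, or 1.71-fold, with a gap of 0.47 between the groups. The third probe set, 1459217_at, was dim and nearly flat, spanning 0.027 over the 7 hearts (difference -0.0043 ± 0.044). In both informative probe sets mdx HRTΔIKKβ heart 4 was the highest of all, and leaving out any single heart kept the difference between 0.53 and 0.80 on the first and between 0.67 and 0.86 on the second. The lowest of these came without mdx IKKβf/f heart 1, the heart rich in skeletal muscle markers and the lowest for 1418674_at.

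The other receptor chains did not follow Osmr. Il6ra, the IL-6 binding chain, differed by -0.05 ± 0.09 on its brightest probe set and 0.12 ± 0.09 on the other, with overlapping groups. Lifr, the partner chain for leukaemia inhibitory factor, differed by 0.04 ± 0.12, 0.08 ± 0.12 and 0.26 ± 0.12 on its 3 probe sets. On the last of these, 1425107_a_at, the difference was 0.16 without mdx IKKβf/f heart 1, which was its lowest heart at 6.44.

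Il6st, which encodes gp130, gave a flat picture on 3 of its 4 probe sets and a different one on the fourth. The 3 brightest, 1452843_at, 1460295_s_at and 1421239_at, differed by 0.01 ± 0.07, 0.08 ± 0.07 and 0.06 ± 0.06, and none of their 95% intervals reached 1.5-fold in either direction. On 1437303_at the values were 9.999, 8.67, 8.58 and 10.19 in mdx HRTΔIKKβ hearts and 8.42, 7.99 and 8.61 in mdx IKKβf/f hearts. Hearts 1 and 4 of the mdx HRTΔIKKβ group were high, hearts 2 and 3 were level with the controls, and the groups overlapped by 0.027. The difference there was 1.02 ± 0.43, with a 95% interval from 0.02 to 2.02, and 0.74 without mdx HRTΔIKKβ heart 4. Probe sets of a gene can read different transcripts, and no source used here says which transcript 1437303_at reads. Averaged over its 4 probe sets Il6st differed by 0.29.

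Stat3, the transcription factor shared by these receptors, was higher in every mdx HRTΔIKKβ heart on its 2 brightest probe sets. On 1426587_a_at it was 12.06, 11.93, 11.47 and 11.55 in mdx HRTΔIKKβ hearts (11.75 ± 0.29, SD, n = 4) and 11.07, 11.21 and 11.28 in mdx IKKβf/f hearts (11.18 ± 0.11, SD, n = 3). The difference was 0.57 ± 0.15, or 1.48-fold, with hearts 1 and 2 of the mdx HRTΔIKKβ group the highest and a gap of 0.19 to the controls. On 1460700_at it was 11.54, 11.53, 10.92 and 11.03 in mdx HRTΔIKKβ hearts and 10.59, 10.70 and 10.90 in mdx IKKβf/f hearts, which makes 0.52 ± 0.17, and the groups came within 0.022 of each other. The same 2 hearts led on both probe sets. The dimmer probe sets 1459961_a_at and 1424272_at differed by 0.14 ± 0.20 and 0.09 ± 0.07, with overlapping groups, and the mean over all 4 gave 0.33. These arrays measure Stat3 RNA, not its phosphorylated protein, which is the form that carries the signal.

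Socs3, the feedback inhibitor that STAT3 induces, had the largest difference of the 10 genes, on all 3 of its probe sets. On the brightest, 1455899_x_at, it was 9.47, 9.05, 9.48 and 8.03 in mdx HRTΔIKKβ hearts (9.01 ± 0.68, SD, n = 4) and 7.57, 6.81 and 7.65 in mdx IKKβf/f hearts (7.34 ± 0.47, SD, n = 3). The difference was 1.66 ± 0.38, or 3.17-fold, with a 95% interval from 0.78 to 2.54. On 1416576_at it was 8.63, 8.29, 8.44 and 7.57 in mdx HRTΔIKKβ hearts and 7.19, 6.94 and 7.26 in mdx IKKβf/f hearts, which makes 1.11 ± 0.24, or 2.15-fold. On 1456212_x_at it was 8.73, 8.43, 8.71 and 7.29 in mdx HRTΔIKKβ hearts and 7.09, 6.07 and 7.06 in mdx IKKβf/f hearts, which makes 1.55 ± 0.40. In all 3 the groups stayed apart, by 0.37, 0.32 and 0.20, and mdx HRTΔIKKβ heart 4 was the lowest of its group and nearest to the controls. Without that heart the differences were 1.99, 1.33 and 1.88, the highest of any left-out heart. By Affymetrix naming an x marks probes that may also match other sequences, which leaves 1416576_at as the Socs3 probe set without that mark, and its difference is the smallest of the 3. The Socs3 promoter is the member promoter above that carries the STAT motif.

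Bcl3, the atypical IκB protein, was 7.54, 7.52, 7.29 and 7.18 in mdx HRTΔIKKβ hearts and 6.83, 7.18 and 7.02 in mdx IKKβf/f hearts on its only probe set. The lowest mdx HRTΔIKKβ heart and the highest control had the same value, and the difference was 0.37 ± 0.12 (95% interval 0.10 to 0.64), between 0.28 and 0.46 with any single heart left out.

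**Figure D3:**
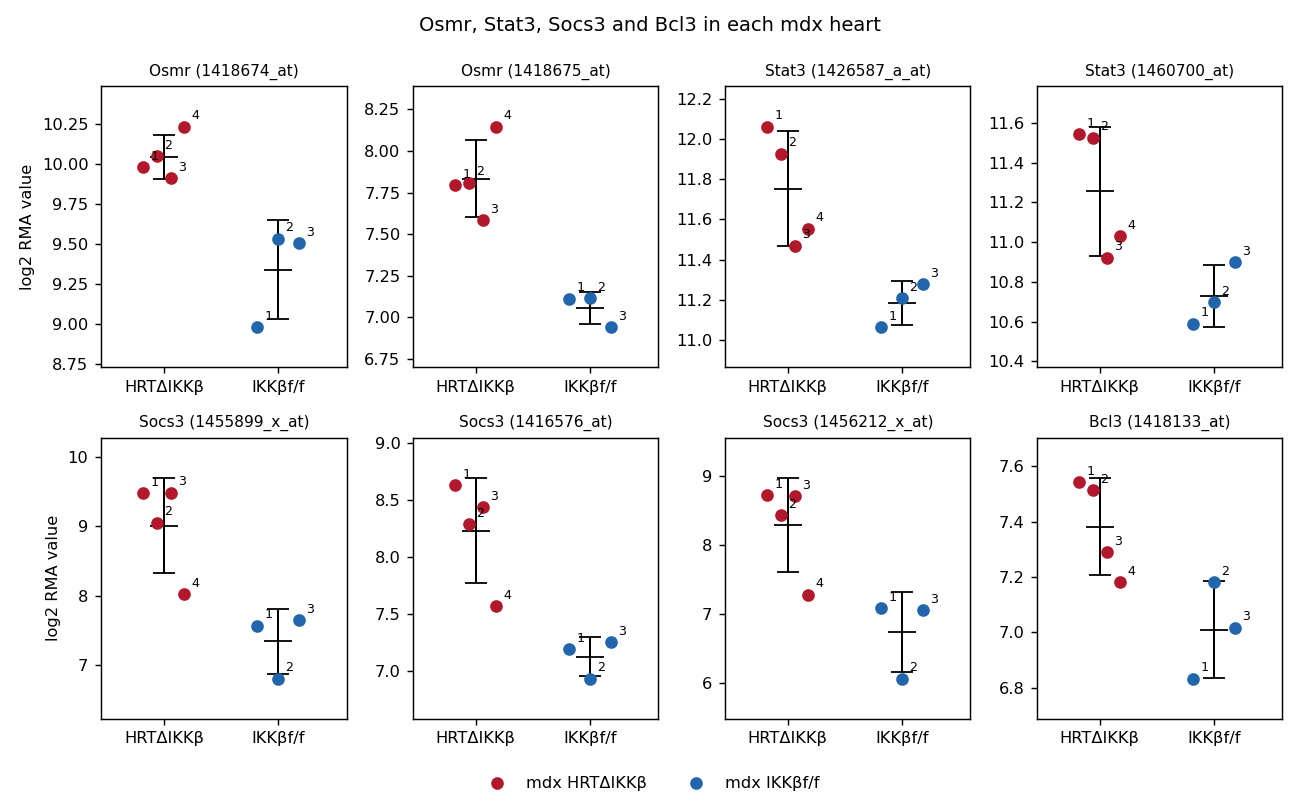
Log2 values in each heart (points, numbered by replicate) for 2 Osmr, 2 Stat3, 3 Socs3 and 1 Bcl3 probe sets, with group means and SD bars, mdx HRTΔIKKβ left and mdx IKKβf/f right, each panel on its own axis. In the Osmr, Stat3 and Socs3 panels all 4 mdx HRTΔIKKβ hearts lie above all 3 mdx IKKβf/f hearts. Heart 4 of the mdx HRTΔIKKβ group is the highest for Osmr and the lowest for Socs3.

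Within the mdx HRTΔIKKβ group the genes did not all vary together. Hearts 1 and 2 were the highest for Osm, Il6, Lif, Stat3 and Bcl3, heart 4 was the highest for Osmr, and hearts 1 and 3 were the highest for Socs3. Heart 4 combined the highest Osmr (10.24) with the lowest Socs3 (8.03), Il6 (4.12) and Bcl3 (7.18) of its group. Likeness to other genes was measured as the Pearson correlation of deviations from the group means over the 7 hearts, among 11474 genes of at least median brightness. For Osmr the 5 highest were Wipf3 (0.98), Ticam1 (0.98), Tnrc6c (0.98), Lzts2 (0.97) and Ipo5 (0.97), and for Socs3 they were Mettl9 (0.99), Ears2 (0.99), Meis1 (0.98), Slc25a42 (0.98) and Gng12 (0.97). With 7 points that share 2 group means, 72 genes exceeded 0.9 for Osmr and 41 for Socs3, and these values only describe these hearts. None of the 10 genes named for likeness was a member, and their own group differences ran from -0.09 to 0.13.

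**Figure D4:**
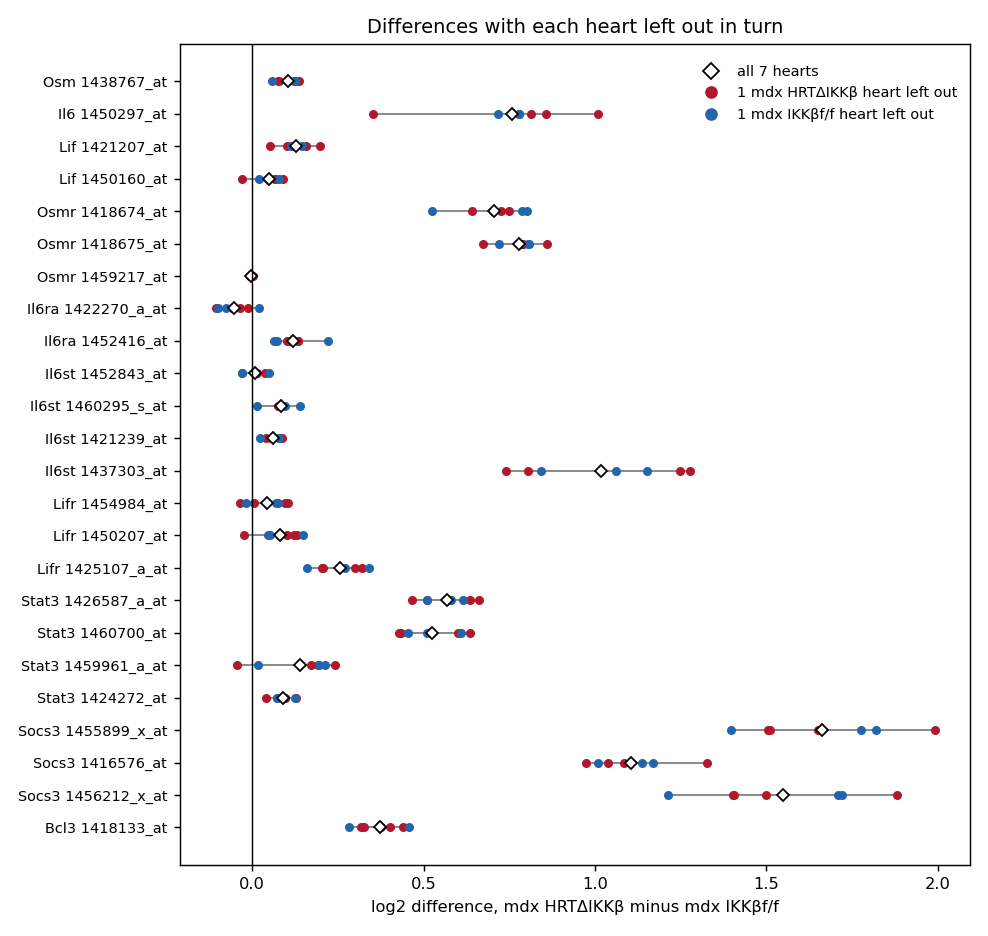
Difference of each probe set on the log2 scale (mdx HRTΔIKKβ minus mdx IKKβf/f) from all 7 hearts (open diamonds) and from fits with each heart left out in turn (red, a mdx HRTΔIKKβ heart left out, and blue, a mdx IKKβf/f heart left out). The differences of Socs3, Stat3 (2 brightest), Osmr (2 brightest) and Bcl3 stay above 0 whichever heart is left out. That was fixed in advance, since none of their mdx HRTΔIKKβ hearts lies below a mdx IKKβf/f heart. Some other probe sets also stay above 0, among them Osm (lowest 0.06) and Il6st 1437303_at (lowest 0.74). The difference of Il6 runs from 0.35 to 1.01.

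The rest of the pathway was followed in 7 lists of 87 further genes, of which 81 had a probe set of their own, each represented by its brightest probe set. At an unadjusted p under 0.05 in limma, 10 of the 81 were higher and 3 lower in mdx HRTΔIKKβ hearts, and 0 passed adjustment. Over all 18193 genes the shares were 3.25% higher and 2.95% lower. The lists were written with earlier results of these data known, so nothing is read from an excess over these shares. Of the 81, 52 had a higher mean and 29 a lower one, with a median difference of 0.07, against -0.0056 over all genes. Among these further genes, those for ligands, receptors, shedding proteases, Janus kinases and other STATs differed by between -0.32 and 0.10. Among 5 other ligands of the family the median was -0.07, and Ctf1, which encodes cardiotrophin-1, was lower, at 8.55, 8.27, 8.73 and 8.85 in mdx HRTΔIKKβ hearts against 8.95, 8.87 and 8.89 in mdx IKKβf/f hearts (-0.30 ± 0.13). Among 5 other receptors and shedding proteases 0 reached an unadjusted p under 0.05 in limma, and the nearest was Adam17, the protease that sheds the IL-6 receptor (0.10 ± 0.08). Among 9 Janus kinases and other STATs, Jak1, the kinase that gp130 relies on most, was 11.10, 11.16, 11.32 and 11.52 in mdx HRTΔIKKβ hearts and 11.66, 11.74 and 11.37 in mdx IKKβf/f hearts, overlapping, with a difference of -0.32 ± 0.13. The other 8 lay between -0.07 and 0.08.

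Inhibitors of the pathway other than Socs3 differed by between -0.30 and 0.66, less than any Socs3 probe set. Of 16 inhibitors 11 had a higher mean, the median was 0.09, and the 1 at an unadjusted p under 0.05 in limma was Ptpn1, a phosphatase that acts on Janus kinases. Ptpn1 was 9.40, 9.64, 9.29 and 9.23 in mdx HRTΔIKKβ hearts and 9.08, 9.11 and 9.15 in mdx IKKβf/f hearts, without overlap (0.28 ± 0.10). The sister genes Socs1 and Socs2 differed by 0.07 ± 0.12 and 0.18 ± 0.13, and Cish, a family member induced through STAT5, by -0.30 ± 0.19.

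Genes known to be induced by STAT3 gave a mixed picture. Of 15 immediate early and survival genes, 3 were higher at an unadjusted p under 0.05 in limma and 0 lower, with a median of 0.06. Myc, a growth-promoting transcription factor, was 7.41, 7.48, 7.61 and 7.55 in mdx HRTΔIKKβ hearts and 7.14, 7.08 and 6.94 in mdx IKKβf/f hearts (0.46 ± 0.07), with a wide gap between groups. Cebpd, a transcription factor of the acute phase response, was 10.29, 10.07, 11.10 and 11.33 in mdx HRTΔIKKβ hearts and 9.58, 10.13 and 9.999 in mdx IKKβf/f hearts (0.80 ± 0.32), and Bcl2l1, which encodes the survival protein BCL-XL, differed by 0.48 ± 0.19. Both overlapped between groups. Pim1, Junb and Mcl1, also known STAT3 targets, differed by 0.01 ± 0.14, 0.15 ± 0.27 and -0.15 ± 0.09. The count at an unadjusted p under 0.05 ranged from 1 to 3 with single hearts left out, being 1 without mdx HRTΔIKKβ heart 4, mdx IKKβf/f heart 1 or mdx IKKβf/f heart 3, and the median was -0.04 without mdx IKKβf/f heart 2.

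The acute phase and secreted genes had the highest median of the 7 lists, at 0.50. The mean was higher in mdx HRTΔIKKβ hearts for 18 of 21 such genes. At an unadjusted p under 0.05 in limma 6 were higher and 0 lower, against 3.25% and 2.95% of all genes. This list too was written with earlier results known, so nothing is read from that excess. The metallothionein Mt2, which binds zinc and copper and is induced by IL-6 and by glucocorticoids, was 13.13, 12.16, 12.26 and 11.61 in mdx HRTΔIKKβ hearts and 10.42, 11.10 and 10.43 in mdx IKKβf/f hearts (1.64 ± 0.34). Its neighbour Mt1 was also higher without overlap (0.76 ± 0.18), as was Il1r1, the receptor for IL-1 (0.32 ± 0.07). Lrg1, a secreted glycoprotein, differed by 0.79 ± 0.26 and Cp, which encodes ceruloplasmin, by 0.28 ± 0.08. The large but uneven members were Timp1 (1.42 ± 0.90), Hp (1.54 ± 0.90) and Ccl2 (1.28 ± 0.75), none at an unadjusted p under 0.05. Ccl2, the monocyte attractant, was 10.53, 9.37, 7.36 and 7.44 in mdx HRTΔIKKβ hearts and 7.31, 7.32 and 7.55 in mdx IKKβf/f hearts, high in hearts 1 and 2 only. The mean over the list put the same 2 hearts apart, at 0.62 and 0.74 against -0.26 and -0.02 in mdx HRTΔIKKβ hearts 3 and 4 and -0.27, -0.45 and -0.36 in mdx IKKβf/f hearts. Those are also the hearts highest for Stat3, Osm and Bcl3. Several marker scores were highest in mdx HRTΔIKKβ hearts 1 and 2 too. These were macrophage (0.23 and 0.21), lymphocyte (0.36 and 1.15), endothelial (0.06 and 0.26) and adipocyte (0.25 and 1.88) scores. The median of the list was 0.30 without mdx HRTΔIKKβ heart 2 and 0.31 without mdx IKKβf/f heart 2. Without mdx HRTΔIKKβ heart 3, 11 genes were higher at an unadjusted p under 0.05 in limma. The number over all probe sets at that threshold, in either direction, also rose without that heart, to 3362 from 2735 with all 7 hearts.

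**Figure D5:**
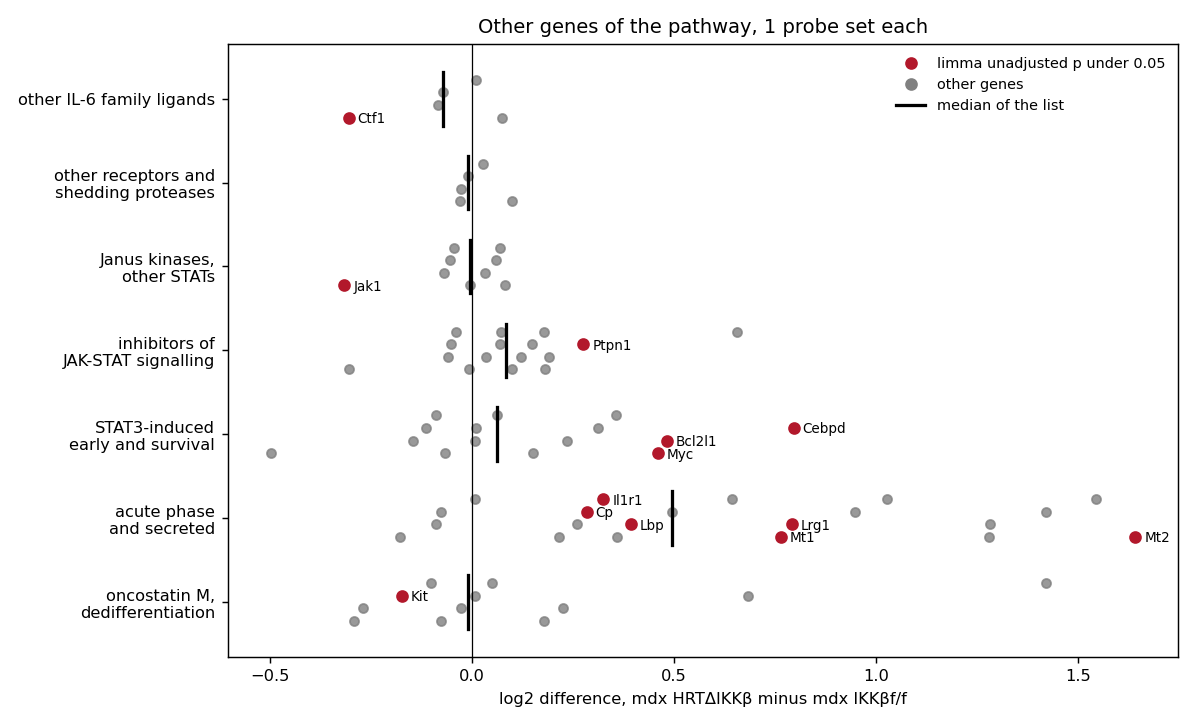
Differences on the log2 scale (mdx HRTΔIKKβ minus mdx IKKβf/f) of 81 further pathway genes in 7 lists (Reg3b and Timp1 stand in 2 lists), 1 probe set each, with genes at an unadjusted p under 0.05 in limma in red and named and the list median as a black bar. The median of the acute phase and secreted list lies at 0.50, and those of the 6 others between -0.07 and 0.09.

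Genes linked to oncostatin M in heart remodelling did not share a direction. Of 12 genes, 6 had a higher and 6 a lower mean (median -0.01). Kit, a stem cell factor receptor, was lower without overlap, at 6.05, 6.21, 6.05 and 6.11 in mdx HRTΔIKKβ hearts against 6.22, 6.31 and 6.30 in mdx IKKβf/f hearts (-0.17 ± 0.06). Runx1, a transcription factor that marks dedifferentiated cardiomyocytes, differed by -0.03 ± 0.08, and Nppa, the natriuretic peptide gene, by 0.68 ± 0.36. Nppa is also among the atrial markers. It was 14.39, 12.88 and 14.04 in mdx IKKβf/f hearts, lowest in heart 2, which was also lowest in atrial markers.

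Marker genes of other cell types and tissues differed between the groups too, among them those of immune cells, which are known sources of oncostatin M and IL-6. Of 18 macrophage markers 16 were higher on average in mdx HRTΔIKKβ hearts (median 0.29), with scores from -0.12 to 0.23 in mdx HRTΔIKKβ hearts and from -0.29 to -0.07 in mdx IKKβf/f hearts, which overlap, and the median was 0.18 without mdx IKKβf/f heart 2. Lyve1, found on resident macrophages and lymphatic vessels, was 10.18, 10.22, 10.32 and 10.54 in mdx HRTΔIKKβ hearts and 8.99, 9.51 and 9.33 in mdx IKKβf/f hearts. It had the largest difference of the macrophage list (1.04 ± 0.14). The 2 markers with a lower mean were Ccr2 (-0.41 ± 0.14) and Cx3cr1 (-0.13 ± 0.13). Of 10 lymphocyte markers all 10 had a higher mean (8 without mdx HRTΔIKKβ heart 1), and the scores, 0.07 to 1.15 in mdx HRTΔIKKβ hearts and -0.94 to -0.24 in mdx IKKβf/f hearts, did not overlap. That list joins T and B cell genes, and its largest differences were those of Ighm (3.25 ± 0.71) and Jchain (3.02 ± 1.01). Cd3e, Cd4 and Cd8a differed by 0.05 ± 0.09, 0.17 ± 0.16 and 0.18 ± 0.35. Of 8 neutrophil markers 3 were higher on average and 5 lower, and the scores ran from -1.21 to 2.57 in mdx HRTΔIKKβ hearts and from -1.13 to 2.27 in mdx IKKβf/f hearts. That tally turned on single hearts, with 0 of 8 higher without mdx HRTΔIKKβ heart 2 and 7 of 8 higher without mdx IKKβf/f heart 1. Atrial markers were higher on average in mdx HRTΔIKKβ hearts for 8 of 8 genes (median 0.90, and 0.25 without mdx IKKβf/f heart 2), with scores from -0.17 to 0.85 in mdx HRTΔIKKβ hearts and from -1.64 to 0.36 in mdx IKKβf/f hearts. Adipocyte markers were so for 5 of 5 (median 0.81, and 0.37 without mdx HRTΔIKKβ heart 2), with scores from -0.18 to 1.88 in mdx HRTΔIKKβ hearts and from -1.10 to 0.14 in mdx IKKβf/f hearts. Skeletal muscle markers were lower on average in mdx HRTΔIKKβ hearts for 13 of 13 (median -2.11, and -0.51 without mdx IKKβf/f heart 1), with scores from -1.29 to 0.15 in mdx HRTΔIKKβ hearts and from -1.03 to 3.81 in mdx IKKβf/f hearts. Of 9 smooth muscle and pericyte markers 8 were lower on average (median -0.22), while 6 of 9 were higher without mdx IKKβf/f heart 3 (median 0.03). The scores of these 4 lists overlapped between groups. Of 10 endothelial markers 6 were higher on average and 4 lower (median 0.04). Endothelial scores overlapped, from -0.12 to 0.26 in mdx HRTΔIKKβ hearts and from -0.18 to 0.04 in mdx IKKβf/f hearts. Pecam1 was higher without overlap (0.30 ± 0.07), and Vwf differed by 0.65 ± 0.21 with overlap. Fibroblast scores ran from -0.25 to 0.13 in mdx HRTΔIKKβ hearts and from -0.29 to 0.12 in mdx IKKβf/f hearts. Cardiomyocyte scores ran from -0.08 to 0.03 in mdx HRTΔIKKβ hearts and from -0.06 to 0.09 in mdx IKKβf/f hearts. The part of these cell types and tissues in the Osmr, Stat3 and Socs3 values was not tested.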

How the data were processed

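Whole-heart RNA from 7 mdx mice was biotin-labelled and hybridized to Affymetrix Mouse Genome 430 2.0 arrays, 1 heart per array. The deposited log2 values are the authors' output of RMA, which corrects background, normalizes arrays to each other by quantiles and summarizes each probe set. Partek and Affymetrix Expression Console are named without versions, and no source used here says which of them made the table. RMA compresses differences of dim probe sets. Groups follow the labels. limma 3.58.1 in R 4.3.3 was fitted over all 45037 probe sets, as a two-sided test without a filter and with Benjamini-Hochberg adjustment, and was tested on simulated data first. An unpaired Student's t-test, which the paper names for its results in general and not for the arrays, was run beside it. The number of arrays limits the precision. Genes were named from the platform annotation, and probe sets with several gene names (932) or none (9160) were not named. Promoters came from RefSeq. The member genes, lists and naming rule were chosen with earlier results of these data known. Of each pathway list, up to 3 genes with the smallest unadjusted p under 0.05 were named, or else the smallest, with Ikbkb and the 5 genes most like Osmr and Socs3. Socs1, Socs2, Cish, Pim1, Junb, Mcl1, Lrg1, Cp, Timp1, Hp, Ccl2, Runx1, Nppa, Lyve1, Ccr2, Cx3cr1 and Igk are outside it and were chosen with their values in view. The same holds for Ighm, Jchain, Cd3e, Cd4, Cd8a, Pecam1 and Vwf. Alternatives covered scaling, left-out hearts, probe set filters, variance priors, array weights, a replicate block and averaging over probe sets.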

Additional observations from a re-analysis of the deposited data

Results flagged for a closer look

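Of 41 groups of 4 hearts examined (24 member probe sets and 17 gene lists), 2 had a single heart far from the other 3, and chance alone places about 1 in 20 groups there. Both were marker scores in mdx HRTΔIKKβ hearts, and both were set apart by heart 2. For the neutrophil score the gap to the nearest heart was 0.849 of the range of the group, with 2.57 in heart 2 and -0.64, -0.91 and -1.21 in hearts 1, 3 and 4. For the skeletal muscle score the gap was 0.889 of the range, with 0.15 in heart 2 and -1.13, -1.18 and -1.29 in hearts 1, 3 and 4. None of the 24 probe sets of the axis had such a heart among the mdx HRTΔIKKβ hearts.
Without mdx HRTΔIKKβ heart 2 the differences of the brightest Osmr and Socs3 probe sets were 0.70 and 1.65, against 0.71 and 1.66 with all 7 hearts.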

How the results depend on the processing

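Over 253 recomputed values of the members, counts and lists, 244 differed from the reported value by less than the spread between hearts (counts by less than 1.5 times), and 8 moved by more (Il6st and Stat3 as means over probe sets, and medians of 4 lists). With single hearts left out the count of probe sets past an adjusted p of 0.05 in limma was 0 to 1, the 1 being a probe set of Igk without mdx HRTΔIKKβ heart 1 (adjusted p = 0.0463). Of 120 recomputed differences of the members' brightest probe sets 8 changed sign, all of Il6ra, Il6st or Lifr, with values from -0.04 to 0.03, and of 98 recomputed list medians 10 changed sign, in 5 lists, with values from -0.04 to 0.04. The count of member probe sets at least 1.5-fold higher was 6 to 9 with single hearts left out and 5 without cross-hybridizing probe sets. The count without overlap between groups was 7 to 10 with single hearts left out. Leaving out a heart cannot lower that count, so this range does not check it. Median-centring the arrays gave a count without overlap of 8. Same-numbered hearts did not deviate together (correlations of -0.08, -0.38 and -0.04), so no pairing by number was seen. So few correlations cannot exclude one. With the replicate block, Osmr differed by 0.64 and Socs3 by 1.99 on their brightest probe sets, the values without mdx HRTΔIKKβ heart 4, which has no partner, and 0 probe sets passed an adjusted p of 0.05 in limma, with 2192 at an unadjusted p under 0.05.
The deposited values carry no background measure, so whether dim probe sets such as that of Il6 were detected was not judged.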
